A study of Mus musculus with 8 samples.

Results

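Astrocytes of the mouse striatum were examined as the nuclei that the authors' deposited annotation places in the cluster named astrocyte. They numbered 4748 of 55672 annotated nuclei, or 8.53%, and were 1 of 18 clusters. The nuclei came from frozen striatum of mice aged 12 weeks of 8 inbred strains: A/J, C57BL/6, 129S1/SvImJ, NOD/ShiLtJ, NZO/HlLtJ, CAST/EiJ, PWK/PhJ and WSB/EiJ. RNA was counted in single nuclei with a droplet assay that reads RNA and open chromatin from the same nucleus. No mouse was treated, no allele was engineered and no strain served as a control, so each strain was set against the mean of the other 7. The design text names the C57BL/6 substrain as C57BL/6J and the deposited nucleus table as C57BL_6NJ, so only C57BL/6 is written here. Each of the 4 batches pooled 1 mouse of every strain before capture, and nuclei were returned to strains afterwards by their genotypes, which gives 4 mice per strain and 32 mice in all. Each batch held 4 male and 4 female mice, the sex of each mouse was not used here, and sex may therefore differ in balance between strains.

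Astrocytes clear glutamate and potassium from around synapses, couple to each other through gap junctions, and supply neurons with cholesterol, glutamine and other metabolites. Their end feet on blood vessels carry the water channel aquaporin-4. In the striatum most are protoplasmic cells with little glial fibrillary acidic protein, the intermediate filament that is abundant in fibrous astrocytes of white matter and in reactive astrocytes.

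The astrocyte label was checked against Slc1a2 and Slc1a3, the glial glutamate transporters, Gja1, the gap junction protein connexin 43, Aqp4, aquaporin-4, and Gfap. To compare shares of nuclei at one depth, each nucleus was thinned at random to 1000 unique molecular identifiers (UMIs, the tags that mark single captured RNA molecules). At that depth Slc1a2 was seen in 97.5% of astrocytes, Slc1a3 in 80.6%, Gja1 in 61.4%, Aqp4 in 26.0% and Gfap in 7.49%. In the first Drd1+ neuron cluster, which should lack these genes, the shares were 12.1%, 1.2%, 0.800%, 0.600% and 0.867%. In oligodendrocytes they were 29.7%, 16.5%, 2.60%, 1.53% and 3.07%. In ependyma they were 32.4%, 25.4%, 36.3%, 36.3% and 2.65%, so Aqp4 was seen in a larger share of ependymal nuclei than of astrocytes. Macrophages had Slc1a2 in 29.9% and Slc1a3 in 29.8%. Median depth before thinning was 2220 UMIs in astrocytes and 6505 in the Drd1+ neurons. For each of the 5 genes the summed level in astrocytes was the highest of the 18 clusters, and the nearest cluster was ependyma for Aqp4, at 325 CPM (counts per 1000000 counts) against 375 in astrocytes. The label therefore fits its markers by summed level. By share of nuclei Aqp4 was higher in ependyma, and Gja1 was shared with it.

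**Figure D1:**
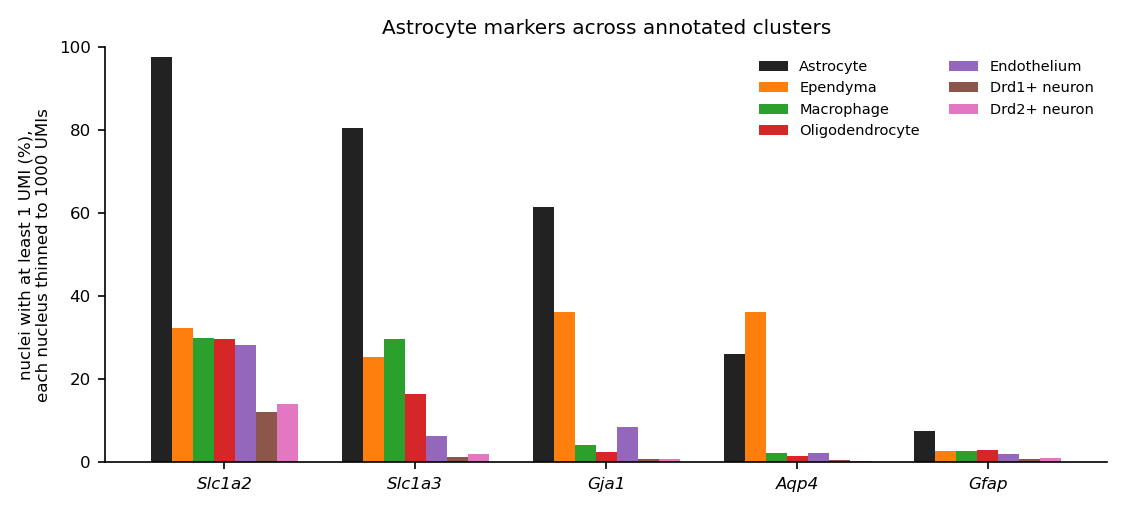
Share of nuclei with at least 1 UMI (vertical axis, percent) of 5 astrocyte markers, in astrocytes and 6 other clusters, with each nucleus thinned to 1000 UMIs. Slc1a2 reaches 97.5% and Gfap 7.49% of astrocytes, against 12.1% and 0.867% of Drd1+ neurons.

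Summed over the astrocytes of a mouse, libraries held from 38252 to 1085998 counts, with a median of 360351. The CAST/EiJ mouse of batch 3 gave the smallest, with 23 astrocytes, and the next smallest held 100020 counts. Batch 3 gave the fewest astrocytes, 673 against 1180 to 1512, and the lowest median depth per nucleus, 1734 UMIs against 2245 to 2335.5. RNA of other cells was present: the 8 listed oligodendrocyte genes summed to 4128 CPM in astrocytes against 25545 in oligodendrocytes, and ranged from 2450 to 4788 over mice. The 12 listed projection neuron genes summed to 991 CPM against 9845 in Drd2+ neurons, and ranged from 540 to 1607 over mice. None of the listed genes of other cell types was at 0. Mbp (myelin basic protein), at 2926 CPM, made up most of the oligodendrocyte sum. The 6 ependymal genes summed to 95.7 CPM against 3948 in ependyma, of which Rarres2 held 57.4 and Cfap44 23.0, while Foxj1 and Ccdc153 stood at 3.57 and 2.5. A barcode sequence was shared between batches in 10 cases, or 20 astrocytes.

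Astrocytes made up from 2.44% to 13.1% of a mouse's nuclei. By strain the share ran from 6.80% ± 1.79 (SD, n = 4) in 129S1/SvImJ to 9.93% ± 1.35 in WSB/EiJ. The strains overlapped, and a permutation test of the strain differences within batches gave p = 0.311, adjusted p = 0.311 over the 3 such tests made. This call rests on 1 mouse. Without the CAST/EiJ mouse of batch 3, whose share was 2.44% (95% exact Clopper-Pearson interval 1.55 to 3.63%, counting error only), the same test gave p = 0.0114, and as a share of non-neuronal nuclei over all 32 mice it gave p = 0.00825. As a share of non-neuronal nuclei the order ran from 16.9% ± 4.36 in 129S1/SvImJ to 25.4% ± 3.66 in WSB/EiJ.

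Depth per astrocyte differed between strains once batch was accounted for, while the spread over the 4 batches within a strain, an SD of 173 to 390 UMIs, was wide beside the range of strain means. The median UMIs per nucleus averaged 2411 ± 260 (SD, n = 4 mice) in NOD/ShiLtJ and 2388 ± 183 in 129S1/SvImJ, against 1975 ± 304 in CAST/EiJ and 2007 ± 301 in WSB/EiJ. The permutation test within batches gave p = 4e-05, adjusted p = 0.00012 over the 3 tests, and without the batch term p = 0.394. The mouse of batch 3 was the lowest in this measure in all 8 strains. RNA per nucleus and the depth of capture cannot be told apart here, and the share of this difference in the gene results below was not tested.

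**Figure D2:**
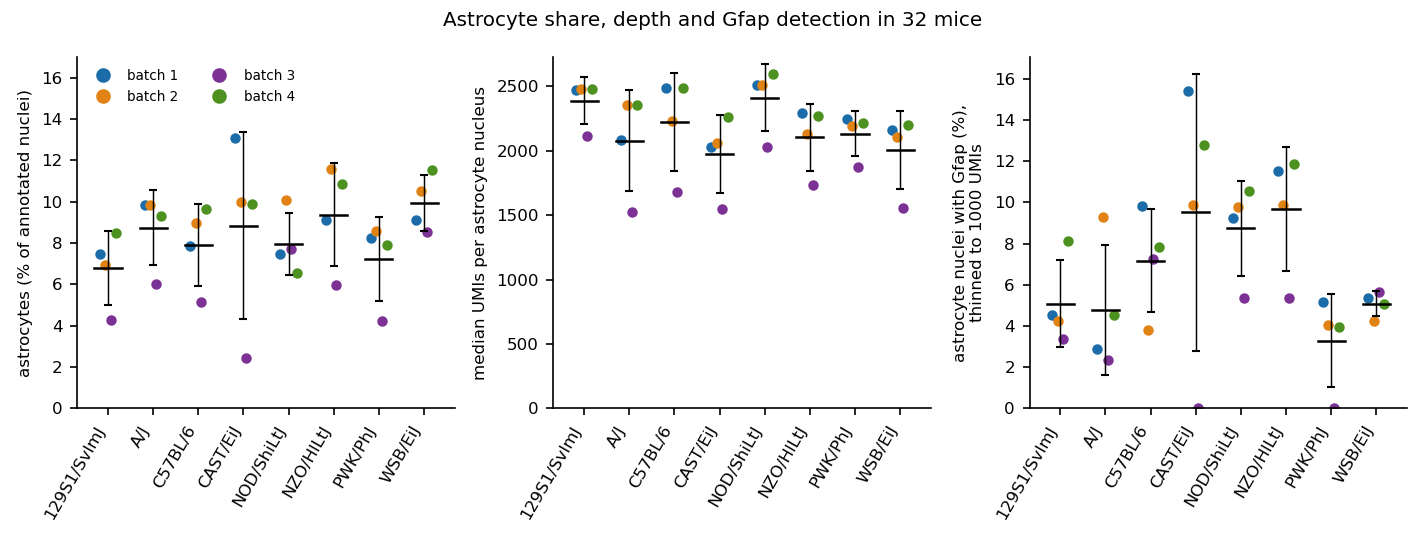
Astrocytes as a percent of a mouse's nuclei, median UMIs per astrocyte nucleus, and percent of astrocytes with Gfap at 1000 UMIs, with 1 point per mouse coloured by batch and the mean and SD of each strain of 4 mice in black. The CAST/EiJ mouse of batch 3 has the lowest share, 2.44%, and the mice of batch 3 sit low in depth.

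Strain differences in gene expression were tested on counts summed per mouse with edgeR's quasi-likelihood test, batch as a term, and Benjamini-Hochberg adjustment over the 8207 genes that passed the filter on low counts. Levels of single genes by mouse and strain are CPM of the tested genes after scaling. They are not corrected for gene length, so they compare mice and not genes. Of the 8207 genes, 1767 (21.5%) differed between strains at an adjusted p under 0.05, and 2537 had an unadjusted p under 0.05. Among the called genes, 1181 had fitted strain means spanning at least 1 on the log2 scale. Genes enriched in astrocytes, defined as at least 10 CPM there and at least 4 times the level in each of the 4 other largest clusters, were called in 335 of 522 cases, or 64.2%. Their median level was 71.7 CPM against 49.5 over all tested genes, so they also held more counts, and their strain means spanned a median of 1.12 against 0.74 on the log2 scale. The levels that define enrichment were pooled over all mice, so a gene can enter through the strain where it is high. Klri1 entered at a pooled level of 12.8 CPM without scaling, and its scaled levels had a mean of 72.9 in NZO/HlLtJ and a median of 0 elsewhere. The part of that choice in the 64.2% and in the span was not tested, so the 64.2% is only a rough reference for the lists below. Members and lists were chosen with earlier results of these data known, so the list counts below are descriptive. When 60 nuclei were drawn from each of the 30 mice that had as many, the strain term in astrocytes called 662 of the 4453 genes then tested. The batch 3 mice of CAST/EiJ, with 23 astrocytes, and PWK/PhJ, with 52, did not enter that setting.

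CAST/EiJ and PWK/PhJ, both wild-derived strains, differed from the other strains in the most genes. CAST/EiJ had 390 genes higher and 401 lower than the mean of the other 7 strains, 9.64% of those tested. PWK/PhJ had 392 higher and 342 lower, 8.94%. The numbers for the other strains were 394 genes (4.8%) in NZO/HlLtJ, 325 (3.96%) in NOD/ShiLtJ, 276 (3.36%) in C57BL/6, 269 (3.28%) in WSB/EiJ, also wild-derived, 258 (3.14%) in A/J and 206 (2.51%) in 129S1/SvImJ. These comparisons share mice, since each strain enters the mean that the others are set against. Leaving out batch 1 reduced the CAST/EiJ number to 391 and leaving out batch 2 to 442, while leaving out batch 3 gave 858.

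In the genes with the strongest strain term, 1 strain often stood far from the other 7. Cntn4, contactin 4, a cell adhesion protein of the immunoglobulin superfamily, stood at 948, 1084, 947 and 943 CPM in the 4 CAST/EiJ mice. In the other 28 mice it ranged from 2.42 to 35.3 CPM with a median of 15.4. The groups did not overlap, with a log2 fold change of 5.92 (SE 0.12, adjusted p = 3.52e-64 by edgeR). Rasgrf1, a guanine nucleotide exchange factor for Ras and an imprinted gene, stood at 223, 271, 359 and 300.2 CPM in PWK/PhJ. It ranged from 0 to 41.0 CPM, with a median of 29.3, in the other mice, a log2 fold change of 3.33 (SE 0.16, adjusted p = 1.83e-33). Cwc22, a splicing factor, stood at 1706, 1719, 1548 and 1593 CPM in WSB/EiJ against 10.6 to 71.0, median 40.0, elsewhere (log2 fold change 5.27, SE 0.10). WSB/EiJ is known to carry extra copies of this gene, so its counts add over copies that cannot be told apart.

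Cntn4, Rasgrf1 and Cwc22 belong to the 12 genes with the strongest strain term, and several of the other 9 differed in more than 1 strain. Retsat, retinol saturase, an enzyme of vitamin A metabolism, was at 289, 296, 426 and 342 CPM in CAST/EiJ. It was at 188, 182, 380.3 and 226 CPM in PWK/PhJ and at 201, 165, 328 and 239 CPM in NOD/ShiLtJ. The strain means of the other 5 lay between 34.0 and 45.6 CPM, so the panel split into 3 strains with high and 5 with low Retsat. Lama2, the laminin alpha 2 chain of basement membranes, was at 82.6, 60.9, 23.7 and 63.9 CPM in CAST/EiJ and from 145 to 1088, median 765, in the other mice (log2 fold change -3.22, SE 0.16, adjusted p = 5.29e-32). It reached 1010 ± 101 CPM in C57BL/6 and was intermediate in PWK/PhJ and NOD/ShiLtJ. Fgf14, an intracellular regulator of sodium channels, was at 1035, 1052, 820.3 and 928 CPM in 129S1/SvImJ and at 270, 244, 166 and 230.1 CPM in NOD/ShiLtJ, without overlap between the 2 strains. AC149090.1, Catspere2, Egfem1, Gm12239 and Zfp949 were also among the 12, with strain means that spanned from 3.02 to 3.99 on the log2 scale. The largest span of the 12 was that of B530045E10Rik, at 330.4, 279, 994 and 921 CPM in CAST/EiJ against 0 to 16.4 elsewhere.

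**Figure D3:**
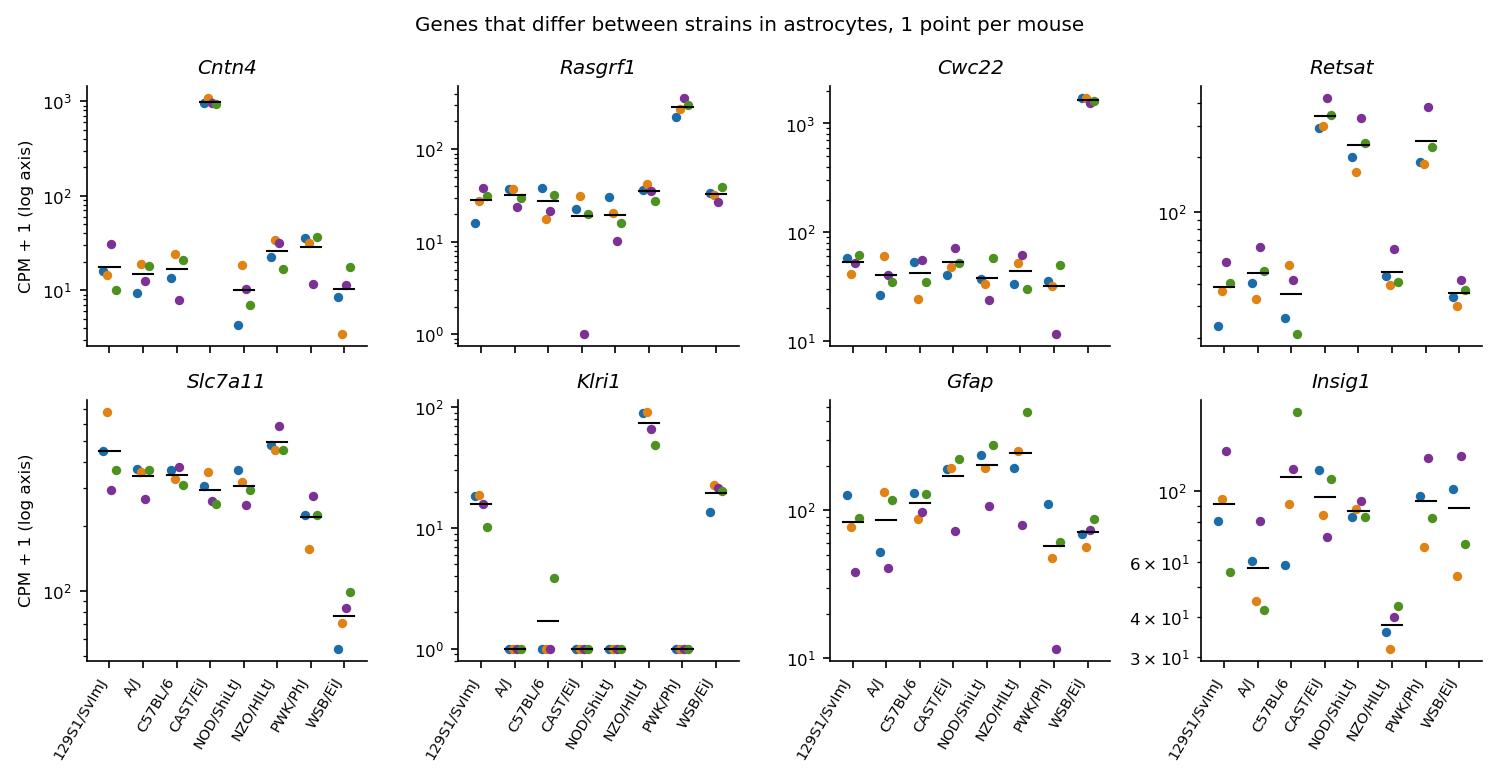
Level of 8 genes in each of the 32 mice (vertical axis, CPM + 1, log axis), by strain, with points coloured by batch as in the plot of share and depth and a line at the strain mean. Cntn4 lies from 943 to 1084 CPM in the CAST/EiJ mice and at or under 35.3 CPM in the other 28.

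Among genes enriched in astrocytes, the 12 with the strongest strain term also included Retsat and Gm12239. Prss56, a serine protease, was at 419, 388, 676 and 452 CPM in PWK/PhJ and at 13.2, 2.17, 0 and 15.1 CPM in NOD/ShiLtJ. C57BL/6 was low as well, at 14.1 ± 5.76 CPM, so its level ran from 0 to 676 CPM across the 32 mice. Mamdc2 was seen in 1 of the 4 WSB/EiJ mice, at 5.14 CPM, and averaged 117 ± 44.1 CPM in 129S1/SvImJ. Fars2, the mitochondrial phenylalanine tRNA ligase, was at 1869, 1543, 1752 and 1514 CPM in A/J and at 407, 354, 284 and 393 CPM in CAST/EiJ, outside the range of the other mice on both sides. Nat8f1, an N-acetyltransferase gene, averaged 369 ± 87.6 CPM in CAST/EiJ and from 80.6 to 109 in the other strains. Tprkb, a part of a tRNA modifying complex, averaged 64.7 ± 15.5 CPM in CAST/EiJ and 406 ± 56.9 in NZO/HlLtJ. Gm9925 averaged 395 ± 142 CPM in CAST/EiJ, and A830019P07Rik 0.629 ± 1.26 CPM in WSB/EiJ against a median of 82.5 elsewhere.

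Each strain also had genes for which its 4 mice lay outside all other mice. The count of such called genes with at least 10 CPM on the higher side was largest in PWK/PhJ, with 43 higher and 23 lower, and CAST/EiJ, with 23 higher and 31 lower. By the largest fold in each direction these included Klri1, a receptor of the killer cell lectin-like family, in NZO/HlLtJ, at 88.9, 89.8, 65.3 and 47.7 CPM against 0 to 21.8 with a median of 0 elsewhere. Ciart, a repressor of the circadian clock, had the lowest levels in NZO/HlLtJ, at 5.39, 5.13, 0 and 2.65 CPM against 7.55 to 63.4. Prnp, the prion protein, was lower in C57BL/6, at 399, 420.4, 397 and 405.0 CPM against 457 to 877 (log2 fold change -0.58, SE 0.10, adjusted p = 2.76e-05). Me3, a mitochondrial malic enzyme, was higher in C57BL/6 at 75.8 ± 21.5 CPM against a median of 21.9. Ttc12 was higher in A/J at 93.5 ± 21.0 CPM against a median of 24.8, and Zfp729a, a zinc finger gene, in NOD/ShiLtJ at 48.3 ± 11.9 against 11. Notum, which inactivates Wnt proteins, was lower in NOD/ShiLtJ at 1.37 ± 1.64 CPM against a median of 18.2 (adjusted p = 0.0147, and 0.0519 without batch 3), and its strain term, at 0.0335, was lost without batch 1 (0.0544), 2 (0.188) or 3 (0.0578). Gm20743 had 0 counts in PWK/PhJ against 463 in the other mice, and Gm41836 had 0 in WSB/EiJ against 314.

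Among the 5 markers, 4 were called in the strain term, against 21.5% of all tested genes and 64.2% of astrocyte-enriched ones. Slc1a2 did not pass there (adjusted p = 0.0612), though its contrast in PWK/PhJ was called as lower (adjusted p = 0.0324), a call lost without batch 1 (0.257), 2 (0.173) or 4 (0.129) and without the batch term (0.127). The strain term of Aqp4 lost its call without batch 1 (0.126) or 4 (0.0537), without the nuclei of most and fewest UMIs (0.12) and with 60 nuclei per mouse (0.346). With the CAST/EiJ mouse of batch 3 left out, an alternative chosen after the data were seen, all 5 were called. Gfap was at 191, 248.8, 78.4 and 459 CPM in NZO/HlLtJ against 10.6 to 276, median 92.1, in the other mice, a log2 fold change of 1.22 (SE 0.20, adjusted p = 0.000222). The NZO/HlLtJ mice overlapped the others and spread widely among themselves. Gfap was also higher in NOD/ShiLtJ, by 0.93 (SE 0.21, adjusted p = 0.00814), and lower in PWK/PhJ, by -0.99 (SE 0.29, adjusted p = 0.0306). The NOD/ShiLtJ call was lost without the batch term (adjusted p = 0.124) and without the 10% of nuclei with most and the 10% with fewest UMIs in each batch (0.277), and the PWK/PhJ call was lost under 5 of the alternatives, among them leaving out batch 2 (adjusted p = 0.118), 3 (0.0761) or 4 (0.148). Slc1a3 was at 2905, 2584, 2934 and 2909 CPM in CAST/EiJ against a median of 2038 elsewhere (log2 fold change 0.48, SE 0.08, adjusted p = 4.57e-06). Gja1 was lower in C57BL/6, at 839, 874, 959 and 1024 CPM against a median of 1227 (log2 fold change -0.42, SE 0.09, adjusted p = 0.0017). Aqp4 was 489 ± 68.1 CPM in NOD/ShiLtJ and 298 ± 28 in WSB/EiJ against a median of 367 and 402 in the respective other mice. The Aqp4 calls, at adjusted p = 0.0217 and 0.024, were lost when batch 1 (0.145 and 0.301), 2 (0.262 and 0.172) or 4 (0.0964 and 0.112) was left out, and when the nuclei of most and fewest UMIs were (0.686 and 0.161).

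In transmitter clearance, 8 of 13 tested genes were called in the strain term, against 21.5% of all tested genes and 64.2% of astrocyte-enriched ones, a share near the latter. Slc7a11, the cystine and glutamate exchanger xCT, was at 52.8, 70.1, 82.3 and 98.1 CPM in WSB/EiJ. All 28 other mice were higher, from 155 to 678 CPM with a median of 344, which gave a log2 fold change of -2.17 (SE 0.16, adjusted p = 4.42e-17). NZO/HlLtJ had the most, at 479, 454, 584 and 453 CPM (log2 fold change 0.92, SE 0.11, adjusted p = 1.52e-08). Glul, glutamine synthetase, was higher in CAST/EiJ, at 997, 1145, 852 and 863 CPM against a median of 623, or 0.68 (SE 0.10) on the log2 scale. Slc38a3, a glutamine transporter, averaged 102 ± 23.8 CPM in NZO/HlLtJ against a median of 149 in the others, lower at an adjusted p of 0.00891, a call lost when batch 1 (0.118) or 2 (0.19) or the nuclei of most and fewest UMIs (0.108) were left out. Its contrasts for C57BL/6 and NOD/ShiLtJ were called as higher. The median log2 fold change over the 13 genes lay between -0.14 and 0.16 in the 8 strains.

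Ion, water and junction genes, 16 tested with 8 called in the strain term against 21.5% of all tested and 64.2% of astrocyte-enriched genes, had the most calls in NOD/ShiLtJ. There 5 were higher and 0 lower, against 3.96% of all genes called in that contrast, with a median log2 fold change of 0.17 over the 16 and 0.02 over all genes, and the median was 0.14 in NZO/HlLtJ with 2 higher. The 5 were Kcnj10, the inward rectifier Kir4.1, Kcnk1, the potassium channel TWIK1, Atp1b2, a sodium pump subunit, Mlc1, an end foot membrane protein, and Aqp4. Kcnk1 was at 204, 215, 245 and 312 CPM against a median of 127 (log2 fold change 0.85, SE 0.12, adjusted p = 6.81e-08). The rise of Kcnk1 was not particular to NOD/ShiLtJ. Its contrasts for NZO/HlLtJ, 129S1/SvImJ and C57BL/6 were called as higher too. Those for WSB/EiJ and A/J were called as lower. Kcnj10 was at 244, 222, 175 and 139 CPM against a median of 125 (adjusted p = 0.00157), and its call was lost without batch 1 (0.0849) or 2 (0.0598). Mlc1 lost its call without batch 1 (0.258). Without the nuclei of most and fewest UMIs only Kcnk1 of the 5 was still called, at adjusted p = 0.0765 for Kcnj10, 0.0719 for Atp1b2, 0.207 for Mlc1 and 0.686 for Aqp4. NOD/ShiLtJ was the strain with the highest mean depth per nucleus. Over the alternatives the number higher ranged from 1 to 5. In the NOD/ShiLtJ contrast the median was 0.33 over 7 oligodendrocyte genes (Mal called) and 0.31 over 3 microglial genes. It was 0.59 over 2 vascular, 0.16 over 11 projection neuron and -0.23 over 2 ependymal genes. The single tested precursor and neuroblast genes were at 0.64 and -0.92. The part of RNA of other cells in the ion, water and junction counts was not tested.

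Of 20 listed receptor and calcium signalling genes 17 were tested. In the strain term 16 of the 17 were called, against 21.5% of all tested genes and 64.2% of astrocyte-enriched ones. The list was chosen with earlier results of these data known, so these counts describe its members and are no test of the list. In NOD/ShiLtJ 8 of the 17 were higher and 0 lower, against 3.96% of all genes called in that contrast, with a median log2 fold change of 0.31. In the same contrast, listed genes of other cells had medians of 0.33 over 7 oligodendrocyte genes (Mal called) and 0.31 over 3 microglial genes. The medians were 0.59 over 2 vascular, 0.16 over 11 projection neuron and -0.23 over 2 ependymal genes. The single tested precursor and neuroblast genes were at 0.64 and -0.92. The part of RNA of other cells in the receptor counts was not tested. Gabbr1, a subunit of the GABA-B receptor, was at 398, 468, 485 and 427 CPM, above the 190.1 to 395 CPM of every other mouse (log2 fold change 0.65, SE 0.11, adjusted p = 6.59e-06). Adra1a, the alpha-1A adrenergic receptor, was at 118, 144, 180.2 and 115 CPM against a median of 89.2 (log2 fold change 0.71, SE 0.16, adjusted p = 0.00185). Ntsr2, the low-affinity neurotensin receptor, was at 918, 1005, 1455 and 1272 CPM against a median of 812 (log2 fold change 0.47, SE 0.09, adjusted p = 0.000253). The other 5 were the GABA-A subunits Gabrg1 and Gabra2, the endothelin receptor Ednrb, the adenylyl cyclase Adcy8 and the sodium-calcium exchanger Slc8a1. Over the alternatives the number called higher ranged from 4 to 8, and 0 were lower. Without the nuclei of most and fewest UMIs the calls of Adra1a (adjusted p = 0.192), Gabra2 (0.0724), Adcy8 (0.0747) and Slc8a1 (0.426) were lost. Leaving out 1 batch also ended calls of Adra1a, Gabrg1, Gabra2, Ednrb, Adcy8 and Slc8a1, as without batch 3 for Adra1a (0.0601), Ednrb (0.226), Adcy8 (0.0657) and Slc8a1 (0.295).

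CAST/EiJ showed 5 lower and 2 higher among the same 17 genes, where 9.64% of all genes were called. Over the alternatives from 3 to 6 were lower and from 0 to 3 higher. Gabra2 was at 118, 122, 142 and 163 CPM against 143 to 383 (log2 fold change -0.88, SE 0.15, adjusted p = 4.16e-06). Gabbr2 was at 21.6, 77.5, 71.0 and 16 CPM against a median of 129, and Grm3, the metabotropic glutamate receptor of adult astrocytes, at 960, 1021, 876 and 1087 against 1453. Grm3 lost its call without batch 1 (adjusted p = 0.128) or batch 3 (0.0755). The other 2 lower genes were Gabrg1 and Gabrb1, and the higher ones S1pr1, a sphingosine phosphate receptor, and Gpr37l1. Gabrg1 lost its call without batch 1 (0.409), Gpr37l1 without batch 2 (0.0995), and S1pr1 without batch 1 (0.0503), 2 (0.311) or 4 (0.663). Adcy2, another adenylyl cyclase and one of the 12 astrocyte-enriched genes with the strongest strain term, stood at 832, 911, 993 and 975 CPM in NOD/ShiLtJ and at 318, 315, 327 and 411 CPM in NZO/HlLtJ, without overlap.

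**Figure D4:**
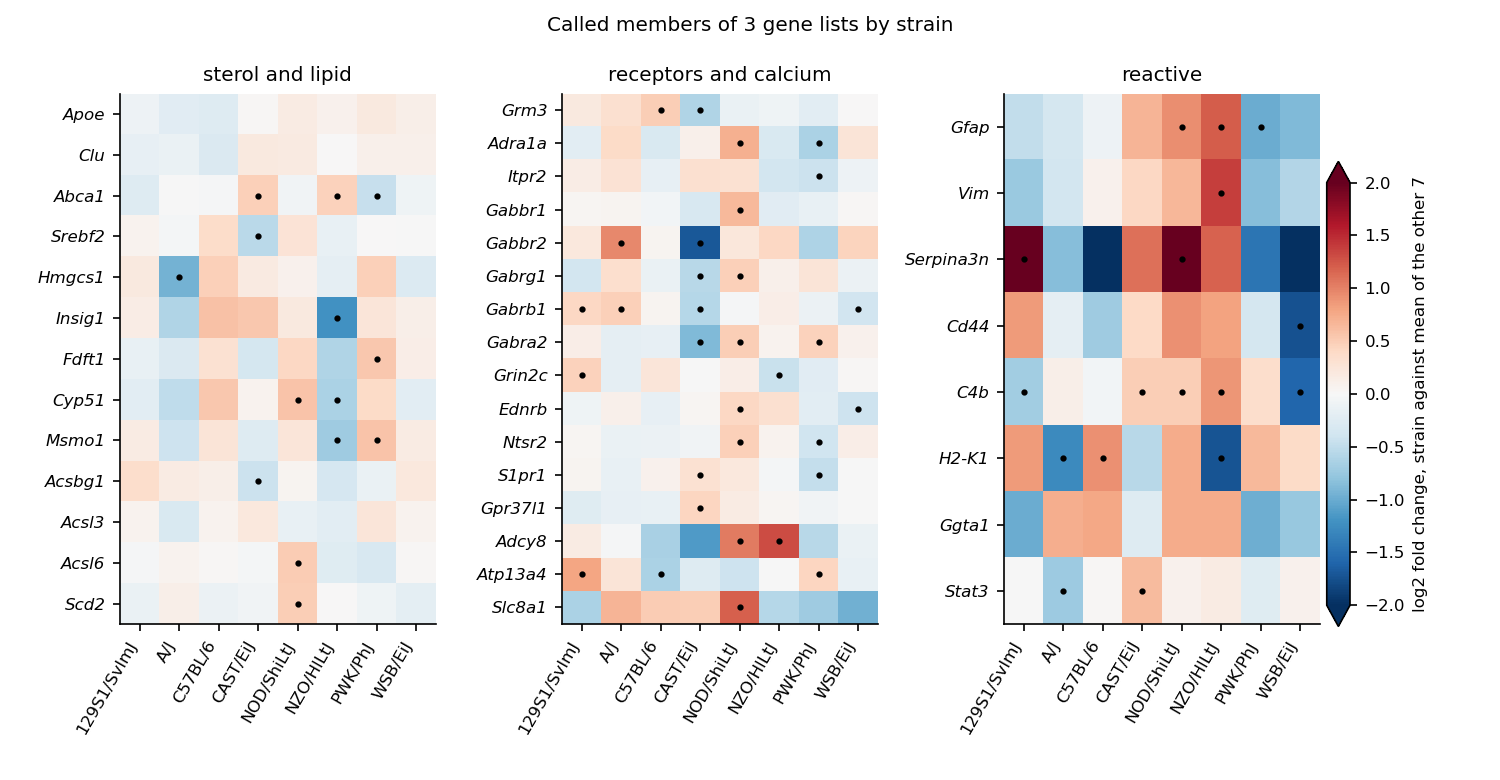
Log2 fold change of each strain against the mean of the other 7 (colour, from -2 to 2) for the members of 3 gene lists called in the strain term (13 of 15 in the sterol and lipid list), with a dot where the contrast itself had an adjusted p under 0.05. In NOD/ShiLtJ 8 of 17 receptor genes are higher, and in NZO/HlLtJ the lipid genes Insig1, Cyp51 and Msmo1 are lower.

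Cholesterol and lipid genes, 25 tested with 15 called in the strain term against 21.5% of all tested and 64.2% of astrocyte-enriched genes, were lower in NZO/HlLtJ for 5 members and higher for 1. The background was 4.8% of genes called in that contrast, and the median log2 fold change was -0.22 over the 25 and 0.02 over all genes. In that contrast the median was -0.31 over 7 oligodendrocyte genes and -0.36 over 3 microglial genes, none of them called by edgeR. It was 0.68 over 2 ependymal, 0.20 over 2 vascular and 0.01 over 11 projection neuron genes. The single tested precursor and neuroblast genes were at -0.21 and 0.18. The part of RNA of other cells in the lipid counts was not tested. Of the 5 lower genes, 3 are described here. Insig1 encodes the endoplasmic reticulum protein that retains the sterol sensor, and Cyp51 and Msmo1 encode enzymes of cholesterol synthesis. Insig1 was at 35.0, 30.8, 39.2 and 42.4 CPM in NZO/HlLtJ against 41.2 to 177, median 82.6, elsewhere. Its log2 fold change was -1.21 (SE 0.22, adjusted p = 6.89e-05). The NZO/HlLtJ mice lay at the low end of the range, and only the highest of them overlapped the other strains.

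Cyp51 and Msmo1 were less stable. Cyp51 was at 43.1, 41.0, 56.6 and 71.6 CPM against a median of 81.4 (log2 fold change -0.64, adjusted p = 0.0393), and Msmo1 at 140.1, 154, 296 and 318 against 375 (-0.72, adjusted p = 0.0143). In both the mice of batches 1 and 2 were lower than those of batches 3 and 4. Cyp51 lost its call without batch 1, 2 or 3, at adjusted p = 0.229, 0.329 and 0.154, and Msmo1 without batch 1 or 3, at 0.223 and 0.0737. Cyp51 also missed the threshold without the batch term (0.0757), in DESeq2 (0.0692) and without the nuclei of most and fewest UMIs (0.175). Over the alternatives from 2 to 6 of the 25 were lower. The higher gene was Abca1, which exports cholesterol, at 439, 351, 361 and 371 CPM against a median of 268 (log2 fold change 0.46, SE 0.11, adjusted p = 0.00327). It lost its call without batch 1 (0.0801). In A/J, Hmgcs1, an early enzyme of sterol synthesis, was lower, at 73.4, 84.1, 62.8 and 46.0 CPM against a median of 128 (log2 fold change -0.95, SE 0.17, adjusted p = 9.74e-05).

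Sterol genes are known targets of the SREBP factors, which bind sterol response elements, often next to CCAAT boxes bound by NF-Y. RefSeq windows of GRCm38.p6 from 250 bases before the start were matched for 17 of the 25 genes, giving 25 windows. Of the windows, 24 overlapped 1 of the 291715 deposited open chromatin peaks, which were called over all nuclei and not on astrocytes. The letters CCAAT, on either strand, were found in 16 of the 25 windows, against 33.8% of all 32851 windows. The letters TCACNCCAC, a sterol response element, were found on either strand in 1, that of Hmgcs1, against 1.05% of all. A match describes letters and shows no binding. The windows of Insig1 (chr5:28071162-28071411, plus strand), Cyp51 (chr5:4104698-4104947, minus strand) and Msmo1 (chr8:64733579-64733828, minus strand) are shown because the genes were lower together in NZO/HlLtJ. That of Hmgcs1 (chr13:119690101-119690350, plus strand) is shown because it held both motifs. Capitals mark CCAAT or its reverse complement, and in Hmgcs1 also the match to the sterol response element.
Insig1: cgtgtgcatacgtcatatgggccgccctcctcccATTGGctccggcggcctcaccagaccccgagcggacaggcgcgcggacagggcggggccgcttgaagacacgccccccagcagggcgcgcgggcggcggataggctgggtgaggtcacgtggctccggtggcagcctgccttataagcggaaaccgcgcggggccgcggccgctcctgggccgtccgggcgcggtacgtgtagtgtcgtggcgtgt
Cyp51: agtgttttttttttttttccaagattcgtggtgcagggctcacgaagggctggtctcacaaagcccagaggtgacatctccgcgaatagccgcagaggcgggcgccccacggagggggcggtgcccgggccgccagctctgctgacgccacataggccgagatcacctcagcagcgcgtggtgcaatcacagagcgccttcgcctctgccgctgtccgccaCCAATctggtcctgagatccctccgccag
Msmo1: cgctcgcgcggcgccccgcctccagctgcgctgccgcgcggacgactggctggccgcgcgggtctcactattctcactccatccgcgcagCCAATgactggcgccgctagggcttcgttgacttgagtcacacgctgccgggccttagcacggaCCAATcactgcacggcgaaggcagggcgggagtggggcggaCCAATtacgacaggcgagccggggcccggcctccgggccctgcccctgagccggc
Hmgcs1: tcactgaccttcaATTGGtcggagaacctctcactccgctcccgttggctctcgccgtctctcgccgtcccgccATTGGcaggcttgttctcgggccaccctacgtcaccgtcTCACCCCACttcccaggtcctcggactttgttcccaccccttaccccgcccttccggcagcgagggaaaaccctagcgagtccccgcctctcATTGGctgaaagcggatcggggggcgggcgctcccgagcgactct

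Genes that rise in reactive astrocytes were mostly too low to test: 9 of 36 passed the filter, 8 of them were called where 21.5% of all tested genes were, and the listed Steap4 and Slc10a6 were at 0. Because a gene can pass through the strain where it is high, these 8 do not describe the whole list. NZO/HlLtJ had Gfap, Vim and C4b higher and H2-K1 lower, where 4.8% of all genes were called. NOD/ShiLtJ had Gfap, Serpina3n and C4b higher and 0 lower, where 3.96% were called. CAST/EiJ had C4b and Stat3 higher and 0 lower, where 9.64% were called. The median log2 fold change over the 9 was 0.81, 0.74 and 0.415 in these strains. In the other strains it ran from -0.75 in WSB/EiJ to -0.05 in C57BL/6. Since the filter that chose the 9 can favour strains where a gene is high, these medians do not describe the whole list either. Over the alternatives the number higher ranged from 2 to 3 in NZO/HlLtJ, 0 to 4 in NOD/ShiLtJ and 0 to 3 in CAST/EiJ. In the NZO/HlLtJ contrast the 2 tested ependymal genes had a median log2 fold change of 0.68, and the sum of the 6 listed was 132 ± 66.7 CPM in NZO/HlLtJ, from 81.2 to 229, against strain means of 58.2 to 118 elsewhere. In the same contrast the median was 0.20 over 2 vascular and 0.01 over 11 projection neuron genes. It was -0.31 over 7 oligodendrocyte and -0.36 over 3 microglial genes. The part of RNA of other cells in the reactive genes was not tested. Vim, the intermediate filament vimentin, was at 43.1, 77.0, 43.5 and 212 CPM against a median of 34.5, and its call (log2 fold change 1.38, adjusted p = 1.67e-06) was lost without batch 4 (0.0629). C4b, complement component 4, was at 178, 144, 165 and 188 CPM in NZO/HlLtJ and at 22.6, 26.6, 46.3 and 59.8 CPM in WSB/EiJ, without overlap. Its log2 fold change against the other strains was 0.88 (SE 0.15) in NZO/HlLtJ and -1.59 (SE 0.20) in WSB/EiJ. Serpina3n, a secreted protease inhibitor, was higher in 129S1/SvImJ, at 39.8, 17.8, 66.5 and 54.8 CPM against a median of 2.67 (log2 fold change 2.74, SE 0.41). Serpina3n was called higher in NOD/ShiLtJ as well, while C4b was called lower in 129S1/SvImJ. C4b, Serpina3n and H2-K1 have near-identical copies in the genome, so the reads counted for them are uncertain.

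Synapse and matrix genes were called in 13 of 21, against 21.5% of all tested and 64.2% of astrocyte-enriched genes, and their median log2 fold change lay between -0.09 and 0.15 in the 8 strains. Among transcription factors, 10 of 22 were called, and Sox9, which specifies the glial lineage, was higher in NZO/HlLtJ at 183, 228, 309 and 193 CPM against a median of 141 (log2 fold change 0.65, SE 0.12, adjusted p = 6.89e-05). Sox9 was also called higher in C57BL/6. Growth factor and signalling genes were called in 5 of 18, glucose and serine metabolism in 6 of 14, regional genes in 7 of 10, and clock and glucocorticoid genes in 11 of 22. These counts and that of the transcription factors are to be read against the same 21.5% and 64.2%. The growth factor count lies near the 21.5% and the regional count near the 64.2%. The transcription factor, glucose and serine, and clock counts lie between these shares. In NZO/HlLtJ the clock genes Per2, at 46.6 ± 11.6 CPM against a median of 90.9, and Dbp, at 61.7 ± 12.6 against 95.1, were lower beside Ciart. Their adjusted p of 0.00457 and 0.0154 became 0.0961 and 0.0935 without batch 2, and Dbp also lost its call without batch 3 (0.107) or 4 (0.0739). Fkbp5, a target of the glucocorticoid receptor, was higher in CAST/EiJ at 126, 133, 71.0 and 35.2 CPM against a median of 10.7, with mice of other strains reaching 206.

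Listed genes of other cell types were tested in the same fit. None of 11 tested projection neuron genes and none of 7 oligodendrocyte genes was called in the strain term by edgeR, where 21.5% of all tested genes were. The oligodendrocyte sum averaged from 3711 ± 275 CPM in 129S1/SvImJ to 4328 ± 307 in C57BL/6, and the neuron sum from 771 ± 178 in PWK/PhJ to 1072 ± 171 in CAST/EiJ. In the single strain contrasts Mal was called in NOD/ShiLtJ and Syt1 in CAST/EiJ. Of the precursor, microglia, vascular, ependymal and neuroblast lists, 9 genes were tested and 6 called, where 21.5% of all tested genes were. Those tested were 1 of 6, 3 of 7, 2 of 8, 2 of 6 and 1 of 6 listed, in that order. A gene can pass the filter through the strain where it is high, so the 6 do not describe the whole lists. Among the 6 were the ependymal Rarres2 and Cfap44 and the vascular Pdgfrb, which met the rule for astrocyte enrichment at 196 CPM.

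Strain effects were then compared with those in other cells of the same mice. Against the first Drd1+ neuron cluster, the difference in strain effect was called for 1794 of 14301 genes, or 12.5%, and against oligodendrocytes for 1218 of 10121, or 12%. Levels in these joint fits were scaled over both cell types and so differ from those above. Cntn4 in CAST/EiJ astrocytes, at 786 ± 118 CPM, stood below the 1341 ± 59.9 of CAST/EiJ neurons, while in the other 7 strains astrocytes held 7.62 to 22.8 CPM and neurons 1332 to 1892. Scaled with oligodendrocytes, Cntn4 in CAST/EiJ was at 901 ± 102 CPM in astrocytes and 322 ± 26.5 in oligodendrocytes, and NZO/HlLtJ oligodendrocytes had 197 ± 35.8 where its astrocytes had 24.0. Rasgrf1 was high in Drd1+ neurons of every strain, from 241 to 280 CPM, and in astrocytes came near that level in PWK/PhJ, at 229 ± 30.1. Fgf14 varied from 191 to 799 CPM between strains in astrocytes and stood between 6240 and 7708 in Drd1+ neurons of all strains.

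For other genes the other cells spanned a wider range between strains than astrocytes did. Psat1, an enzyme of serine synthesis, was at 62.5 to 123 CPM in astrocytes of all strains, while Drd1+ neurons had 86.2 CPM in A/J and NOD/ShiLtJ and 105 in WSB/EiJ against 10.8 to 16.1 in the other 5. In astrocytes alone Psat1, higher in CAST/EiJ, and Pde4d were called in the strain term too (adjusted p = 0.000802 and 0.00012), and both calls were lost without batch 2 (0.0789 and 0.0645), as was that of Psat1 with 60 nuclei per mouse (0.312). Adgrv1, an adhesion receptor, was at 27.5 to 84.0 CPM in astrocytes of all strains and in neurons at 58.1 CPM in CAST/EiJ alone, against at most 6.29 elsewhere. Cdh2, N-cadherin, was at 502 to 689 CPM in astrocytes of all strains and in oligodendrocytes at 367 to 504 in C57BL/6, NOD/ShiLtJ and WSB/EiJ against at most 113 elsewhere. Pde4d, a cAMP phosphodiesterase, held 326 to 554 CPM in astrocytes, while oligodendrocytes reached 1699 in NZO/HlLtJ and 1728 in PWK/PhJ. Lama2 was low in CAST/EiJ in both glial types, at 54.2 ± 25.2 CPM in astrocytes and 2.72 ± 2.22 in oligodendrocytes. Cwc22 was high in WSB/EiJ in all 3 cell types, and its interaction did not pass (adjusted p = 0.436 with neurons and 0.869 with oligodendrocytes).

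Insig1, Cyp51 and Msmo1, lower in NZO/HlLtJ, were all called in the comparison with oligodendrocytes. Insig1 there was at 35.0 ± 4.99 CPM in NZO/HlLtJ astrocytes and 34.3 ± 6.74 in its oligodendrocytes, where the other strains' oligodendrocytes ran from 25.1 to 64.3. Cyp51 was at 50.4 ± 13.8 in NZO/HlLtJ astrocytes against 55.2 to 108 in the other strains, while its oligodendrocyte level of 76.2 ± 20.3 lay inside the 42.7 to 77.2 of the others. Msmo1 was the highest of the 8 strains in NZO/HlLtJ oligodendrocytes, at 151 ± 67.7 CPM, and the lowest in NZO/HlLtJ astrocytes, at 216 ± 88.8. The adjusted p of these interactions, by edgeR over all strains, ran from 2.9e-13 for Msmo1 to 0.000975 for Insig1, and they test the 8 strains together and not NZO/HlLtJ alone.

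Astrocytes also differed among themselves within a mouse. After thinning to 1000 UMIs, 347 of 4632 astrocytes had at least 1 Gfap UMI, and 116 astrocytes were too shallow to enter. Within 14 mice that had at least 10 such nuclei, 256 nuclei with Gfap were set against 2265 without, paired by mouse, with Gfap left out of the test. No mouse of batch 3 and none of PWK/PhJ reached 10 and entered. Of 1326 genes tested, 67 (5.05%) were higher and 60 (4.52%) lower in nuclei with Gfap at an adjusted p under 0.05 by edgeR. With no filter on low counts 16 were higher and 1606 lower of 19320, the median log2 fold change of the 1326 genes moved from -0.03 to -0.73, and Apoe and Ntrk2 turned from higher to -0.01 and -0.03. Directions here are therefore relative to the genes that passed the filter. Igfbp5, an insulin-like growth factor binding protein, averaged 0.941 UMIs per nucleus with Gfap and 0.263 without, and was higher in 14 of 14 mice (log2 fold change 1.89, SE 0.16, adjusted p = 1.22e-15). Aqp4 averaged 0.793 against 0.325 UMIs, higher in 13 of 14 mice (log2 fold change 1.31, SE 0.15). Clu, clusterin, averaged 3.38 against 1.67 UMIs, Apoe, the main brain apolipoprotein, 11.8 against 7.16, and Cst3, cystatin C, 12.3 against 6.96, each higher in 13 of 14 mice.

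Among the other genes higher with Gfap were Sparcl1, a secreted matrix protein that promotes synapses, Scd2, a fatty acid desaturase, and Ntrk2, the receptor TrkB, each in 13 of 14 mice, and Cd81 and Tmem47 in all 14. C4b averaged 0.301 against 0.0998 UMIs, higher in 11 of 14 mice. Against 5.05% of all tested genes higher and 4.52% lower, of the ion, water and junction list 5 of 12 tested were higher and 0 lower (among them Kcnj10, Aqp4, Gja1 and Atp1b2), and of the transcription factors 4 of 14 were higher and 0 lower (Sox9, Id2, Id3 and Id4). Of the synapse and matrix list 3 were higher (Sparc, Sparcl1 and Thbs4) and 6 lower of 15. The lower genes included Gpc5, a glypican, at 4.94 against 7.90 UMIs, and Lsamp, a neural adhesion protein, at 7.72 against 12.0, each lower in 14 of 14 mice. Grm3 averaged 0.730 against 1.38 UMIs and Luzp2 0.840 against 1.59, also lower in every mouse. Slc7a10, a transporter of small neutral amino acids, was lower too, at 0.133 against 0.263 UMIs.

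Several measures moved with the class. The genes higher with Gfap were short, with a median length of 23.5 kb against 98.3 for all tested genes, and those lower were long, at 417 kb. Of 444 tested genes under 50 kb 51 were higher and 6 lower, and of 333 of at least 200 kb 8 were higher and 38 lower. Mitochondrial genes made up 4.52% ± 0.77 (SD, n = 14 mice) of counts with Gfap and 4.01% ± 0.28 without, higher in 12 of 14 mice, with p = 0.0378 by an exact paired permutation test, two-sided. Mbp was higher as well, at 3.75 against 2.99 UMIs in 10 of 14 mice (adjusted p = 0.0403). The median depth before thinning was 2361 UMIs with Gfap and 2232 without. The part of gene length, of cytoplasmic RNA and of oligodendrocyte RNA in the class difference was not tested.

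**Figure D5:**
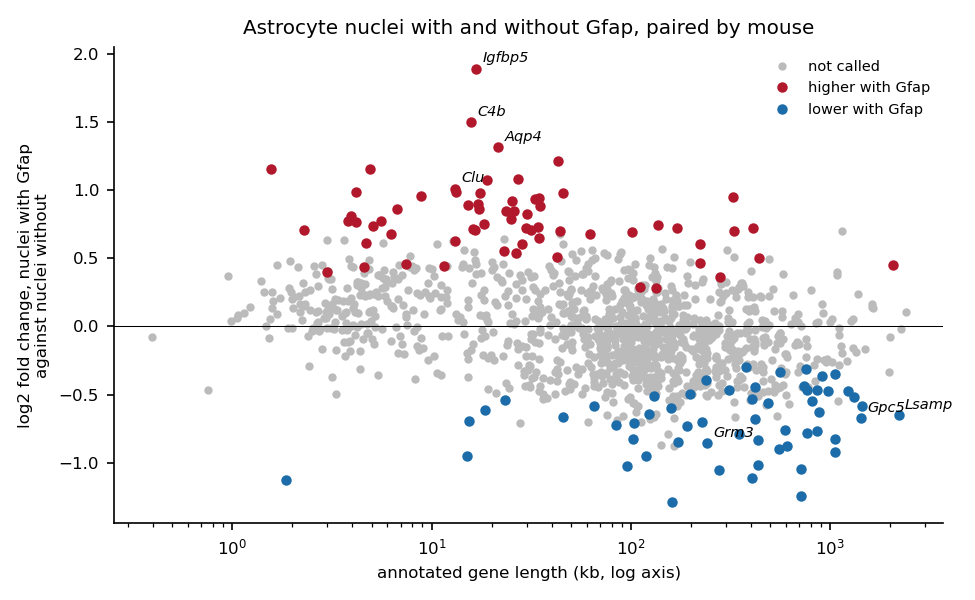
Log2 fold change between nuclei with and without Gfap (vertical axis) against annotated gene length (kb, log axis), with 1 point for each tested gene that has a length. The genes higher with Gfap, at a median of 23.5 kb, lie to the left of those lower, at 417 kb.

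The share of astrocytes with Gfap varied between strains. It averaged 9.67% ± 3.00 (SD, n = 4) in NZO/HlLtJ, 9.51% ± 6.73 in CAST/EiJ and 8.74% ± 2.31 in NOD/ShiLtJ, and was lowest in PWK/PhJ, at 3.29% ± 2.27. The CAST/EiJ mice were at 15.4%, 9.88%, 0% and 12.8%, the mouse of batch 3 having 0 of 20 nuclei and the other 3 lying above the NZO/HlLtJ mean. A permutation test within batches gave p = 0.0177, adjusted p = 0.0265 over the 3 tests. By the same permutation test the call was lost without batch 1 (p = 0.0991), without batch 4 (p = 0.184) and without the batch term (p = 0.0581), and without the CAST/EiJ mouse of batch 3 the p was 0.00297. Without thinning the p was 9e-05, and at 2000 UMIs it was 0.00146. Over all mice the share was 7.49% of astrocytes (95% exact interval 6.75 to 8.29%), against 0.867% of Drd1+ neurons (0.462 to 1.48%) and 3.07% of oligodendrocytes (2.25 to 4.07%), and the PWK/PhJ share lay near the latter. These intervals pool the nuclei of all mice and cover counting error only, not the spread between mice.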

How the data were processed

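The deposited tables held whole-number UMI counts per gene and nucleus for 4 pools, and a deposited table gave each nucleus its batch, strain and cluster. Per the submitters' processing notes, the authors used bcl2fastq 2.20.0.422 and Cell Ranger ARC 2.0.0 and the build mm10. The deposited file description says that strains were assigned with Demuxlet, doublets called with DoubletFinder, and nuclei filtered to over 200 and under 7500 genes and under 15% mitochondrial counts. Every annotated nucleus was a singlet by both tools, passed that filter and was kept by the authors as biologically relevant. No doublet caller was run again. The counts rest on 1 reference, so reads of CAST/EiJ and PWK/PhJ, which carry the most variants, may map less often at some genes. Counting by strand is not given in the sources used here, so overlapping and antisense genes cannot be told apart.

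Counts of astrocytes were summed per mouse (batch and strain), for mice with at least 10 such nuclei. They were tested in edgeR 4.0.16 (R 4.3.3) with TMM scaling, filterByExpr, robust quasi-likelihood fits, strain and batch as terms, and Benjamini-Hochberg adjustment over all tested genes, with calls at an adjusted p under 0.05. DESeq2 1.42.0 was an alternative. Interaction fits had the mouse as a block and batch by cell type as a term. Shares and depth were tested by 100000 permutations of strain within batch of the F statistic, on log2 values with 0.5 nuclei added to counts of nuclei. CPM of single genes by mouse and strain are per 1000000 tested counts after scaling. Levels by cluster, levels that define enrichment and sums over lists are per 1000000 counts of all genes, without scaling. Thinning was done at random to 1000 UMIs, and other clusters were thinned in draws of at most 1500 nuclei. Scripts were tested on simulated data.

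The batch number comes from the labels and marks mice captured in 1 pool, so batch is a block in the main fits. The correlation of deviations from strain means averaged 0.043 over 112 pairs of mice of the same batch and -0.013 otherwise. Genes named were the 12 with the largest strain F and at least 10 CPM in some strain, the 12 such among astrocyte-enriched genes, the largest fold each way per strain without overlap, 6 per interaction, 12 higher and 6 lower by Gfap class, and up to 4 called members per list by F. Other list members are named where a count includes them, and Foxj1, Ccdc153, Rarres2, Cfap44, Mbp and some genes of the class comparison were chosen after their values were seen. A few list members are counted but not reported here. Members and lists were chosen with earlier results of these data known. Lists covered astrocyte markers, transmitter uptake, ion, water and junction, lipid and cholesterol, glucose and serine, synapse and matrix, receptor and calcium, growth factor, transcription factor, regional, reactive, clock and glucocorticoid genes, and markers of 7 other cell types. Promoter sequences, from RefSeq GRCm38.p6, were searched for motifs on both strands. Gene lengths are from the RefSeq gene table and include introns.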

Additional observations from a re-analysis of the deposited data

Results flagged for a closer look

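In 20 of 192 groups of 4 mice examined, 1 mouse lay far from the other 3, by Dixon's criterion for the gap as a share of the group's range. Chance gives this in about 1 group in 20 for normally spread values, but 6 of the 20 had 3 mice at 0, where any count in the fourth meets the criterion, so the number of cases is not compared with chance. The mouse of batch 3 stood apart in depth, with a median of 2110 UMIs per astrocyte in 129S1/SvImJ, 2030 in NOD/ShiLtJ, 1880 in PWK/PhJ and 1560 in WSB/EiJ, each below the other 3 mice. It also stood apart in the share of astrocytes in A/J, at 6.03%, and in PWK/PhJ, at 4.24%. Among the markers, Slc1a2 was low in the WSB/EiJ mouse of batch 2, at 5940 CPM, and Slc1a3 in the CAST/EiJ mouse of batch 2, at 2580 CPM. The other cases were single values of genes that differ between strains. In CPM these were 2900052N01Rik at 57.1 in A/J batch 3, Cfap69 at 10.6 in PWK/PhJ batch 1, Gm20743 at 108 in A/J batch 3, Gm41836 at 49.0 in 129S1/SvImJ batch 2, and Ttc12 at 25.7 in C57BL/6 batch 4 and 14.1 in PWK/PhJ batch 4. Against 3 mice at 0, they were 4933401D09Rik at 2.77 in CAST/EiJ batch 2, B530045E10Rik at 2.49 in 129S1/SvImJ batch 1, 1.00 in A/J batch 2 and 7.49 in C57BL/6 batch 1, Gm13031 at 3.20 in CAST/EiJ batch 4, and Klri1 at 2.85 in C57BL/6 batch 4.

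The strain effect in astrocytes differed from that in Drd1+ neurons for 1794 genes and from that in oligodendrocytes for 1218 genes, by the interaction term in edgeR.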

How the results depend on the processing

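Of 3631 recomputed values of 361 named gene results, 3054 kept their side of the threshold, 546 lost the call, 28 gained it and 3 reversed. Of the results, 184 never lost a call or reversed. Direction was compared only in the strain contrasts and the Gfap classes. Strain terms and interactions were judged by the threshold alone and could not count as reversed. The reversals were Ntrk2, Apoe and Cpe in nuclei with Gfap with no filter on low counts, at -0.03, -0.01 and -0.05 on the log2 scale. That setting called 1622 genes between the classes, 16 higher and 1606 lower, and moved the median log2 fold change of the 1326 genes from -0.03 to -0.73. Thinning to 2000 UMIs called 363 genes in 19 mice. With no replicate block (batch left out) the strain term called 1480 genes, 1477 of them shared with the 1767, the test of UMIs per astrocyte gave p = 0.394 and that of the Gfap share p = 0.0581, by permutation. By the permutation test the share of astrocytes gave p = 0.00825 among non-neuronal nuclei and p = 0.0114 without the CAST/EiJ mouse of batch 3, an alternative chosen after the data were seen. Drawing 60 nuclei per mouse called 662 genes in the strain term, of fewer genes tested and in the 30 mice that had 60. Leaving out nuclei of extreme depth called 210 in NOD/ShiLtJ. Leaving out each batch in turn gave ranges of 1138 to 1675 genes for the strain term, 116 to 217 for 129S1/SvImJ, 141 to 271 for A/J, 147 to 255 for C57BL/6, 391 to 858 for CAST/EiJ, 166 to 265 for NOD/ShiLtJ, 202 to 295 for NZO/HlLtJ, 480 to 656 for PWK/PhJ and 159 to 269 for WSB/EiJ. The ranges were 1121 to 1507 against Drd1+ neurons, 805 to 1137 against oligodendrocytes and 75 to 127 for the Gfap classes, where no mouse of batch 3 entered, so that leaving it out repeats the same 14 mice. The p ranged from 0.0263 to 0.693 for the share of astrocytes, from 0.00078 to 0.00253 for UMIs and from 0.00844 to 0.184 for the Gfap share. Leaving out a batch leaves fewer mice, and the cause of the other changes was not tested. The class of at least 2 Gfap UMIs could not be fitted, since too few mice had 10 such nuclei.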
